A study of Mus musculus with 6 samples.

Results

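The ephrins and their Eph receptors, the Slits and their Robo receptors, and the netrins and theirs were followed across immortalized murine embryonic fibroblasts (MEF) that were wild type (WT) or lacked TIA1 or TIAR. All probes whose gene name in the array files belongs to these families were taken, which gave 59 of 55681 probes and 41 of 34797 gene names. They comprised 9 EphA and 5 EphB receptors, 5 ephrin-A and 3 ephrin-B ligands, 3 Slits, 4 Robo receptors, 4 secreted netrins, 2 netrin-Gs and 6 netrin receptors.

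TIA1 and TIAR are related RNA-binding proteins that act in splicing, mRNA stability and translation. Total RNA of each culture was labelled with 1 dye (Cy3) and hybridized to 6 arrays, 2 per group, from independent experiments per the study's methods. The WT MEF are labelled as strain W4, the TIA1 KO MEF as BALB/c and the TIAR KO MEF as C57BL/6. All are immortalized MEF, and the effects of genotype, of strain and of the line itself cannot be told apart. A single slide held the 6 arrays, with the TIA1 KO arrays in row 2 and the others in row 1, and row cannot be told apart from the loss of TIA1. The TIA1 KO arrays had the brighter spots, with a median spot intensity of 458 and 218 against 152 and 140 in WT and 136 and 119 in TIAR KO MEF, and fewer probes rated well above background by the scanner software (16000 and 19920, against 23531 and 26254 in WT and 24754 and 25985 in TIAR KO MEF).

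Ephrins are ligands held on the cell surface, by a lipid anchor in the A class and by a transmembrane stretch in the B class, and their Eph receptors are receptor tyrosine kinases. Binding needs contact between cells and signals into both of them. Slits are secreted proteins that repel cells and growth cones through Robo receptors, and secreted netrins are laminin-like proteins that attract through Dcc or Neo1 and repel through Unc5 receptors. These families act in axon guidance, and in fibroblasts and other mesenchymal cells they act in contact repulsion, boundary formation and migration.

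Each value is a normalised log2 intensity, where 1 unit is a 2-fold difference. The intensity of a probe depends on the probe, so levels were compared between arrays and not between genes. Where a gene had several probes, it was read from the one with the highest mean over the 6 arrays. Each array probe is 60 bases long. The first 30 bases of the probes of 7 genes described below are shown, 5′ to 3′ and all in lower case, because these readings are what the values of those genes rest on. Their positions in mm9, the build of the array files, are given with each gene.

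Epha2: agcccctttggacaaatgtcgctgtcagtg
Epha4: caggctctgaggtttttattttttggcgat
Efna5: tgtgattctagcatttgtctctaaccaatg
Efnb1: ttttggaccctcatgagacaatgctgttcc
Slit3: aatatgtcttccagtgcacggacggctcct
Robo1: cagttctaagggaacaatccacgtgattaa
Robo3: tctaccgctggtagcaattcttctaggggt

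By these probes, 18 of the 41 genes were well above background on all 6 arrays, 13 on some and 10 on none. By group, 25 genes were well above background on both WT arrays, 20 on both TIA1 KO arrays and 27 on both TIAR KO arrays. Each of these counts but those of 13 and 10 includes Dcc through a bright probe that the array files place on another chromosome than the gene, as described below. The 10 genes whose probe was near background throughout were Epha1, Epha3, Epha6, Epha8, Ephb1, Robo2, Robo4, Ntn5, Ntng1 and Unc5d, and none of them was called in any comparison. Another Robo2 probe read 6.80 and 6.75 in WT, 7.68 and 8.05 in TIA1 KO and 6.84 and 6.66 in TIAR KO MEF, and was well above background on 1 TIA1 KO array. It did not pass in TIA1 KO MEF (at least 1.86-fold higher, limma adjusted p = 0.0738). Every family but the Robo receptors and the netrin-Gs had members well above background on all 6 arrays.

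The labelled cell type was checked against fibroblast markers. Vim, S100a4, Col1a1, Col1a2 and Fn1, which encode vimentin, a calcium-binding protein of motile fibroblasts, type I collagen and fibronectin, were well above background on all 6 arrays, as were Col3a1 and Pdgfrb. The lines differed widely in several of them. Col3a1, which encodes type III collagen, read 9.52 and 9.08 in WT, 15.59 and 15.65 in TIA1 KO and 15.16 and 16.65 in TIAR KO MEF, and Pdgfrb read 9.77 and 8.86, 12.80 and 13.03, and 13.32 and 12.94 in the same order. The mean log2 readings of Col1a1, Col1a2 and Fn1 were 2.06, 2.50 and 2.74 above WT in TIA1 KO and 2.40, 2.28 and 2.20 above it in TIAR KO MEF, while those of Vim and S100a4 were within 0.49 of it. The receptor gene Pdgfra was near background in WT MEF (6.37 and 6.40) and well above it in TIA1 KO (10.05 and 10.23) and TIAR KO MEF (11.68 and 11.51). The surface marker Thy1 read 6.63 and 6.98 in WT, 7.11 and 7.48 in TIA1 KO and 14.84 and 14.74 in TIAR KO MEF. The summed linear values of the 9 fibroblast markers were 533400 and 567000 in WT, 1314000 and 1289000 in TIA1 KO and 1340000 and 1361000 in TIAR KO MEF. The largest part came from S100a4 on the WT arrays and TIAR KO replicate 2, and from Col1a2 on the other arrays.

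Marker genes of other cell types were summed in the same way, and each sum is compared between arrays and not with that of another list. The 8 endothelial markers summed to between 3265 and 4151 on the 6 arrays, with the largest part from Kdr, and Cdh5, Tie1, Emcn, Cldn5 and Esam were near background on all of them. For 6 neuronal or glial markers, the largest part of which came from Snap25, the sums were 3550 and 2829 in WT, 7579 and 6969 in TIA1 KO and 3438 and 2992 in TIAR KO MEF, with Rbfox3 and Gfap near background on all 6 arrays. The 6 epithelial markers summed to 1176 and 1080, 1297 and 1615, and 2543 and 2508 in the same order, with the largest part from Krt8 in WT and TIA1 KO and from Krt18 in TIAR KO MEF. Krt18 read 7.29 and 7.30 in WT and 10.08 and 9.95 in TIAR KO MEF, and Cdh1 read 6.69 and 6.76 against 8.37 and 8.26. Krt8 was higher there as well, with 8.24 and 8.37 against 9.47 and 9.61. The mean readings of Krt5, Krt14 and Epcam were lower in TIAR KO MEF, at -0.58, -0.27 and -0.11 from WT MEF, and none of them passed. The 5 haematopoietic markers, with the largest part from Itgam, summed to 6586 and 4770, 14640 and 12650, and 7639 and 7626, with Ptprc and Lyz2 near background throughout. The part of these differences between the lines in the results below was not tested. In RNA of whole cultures, fewer cells of a type and less RNA per cell cannot be told apart.

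The targeted genes were read by several probes, and none of the Tia1 probes passed in the line that lacks it. The brightest of them read 10.72 and 8.54 in WT and 7.87 and 8.44 in TIA1 KO MEF, a mean difference of -1.47 (limma adjusted p = 0.288), and a second gave -1.62 (limma adjusted p = 0.116). The remaining one, near background on both WT arrays and above it on 1 TIA1 KO array, was higher there, with 7.44 and 7.25 against 7.88 and 8.54 (limma adjusted p = 0.149). The Tial1 probe that was read on all arrays went from 11.71 and 11.09 in WT to 10.00 and 9.65 in TIAR KO MEF (limma adjusted p = 0.0254). The other Tial1 probe, read on 1 WT array, stood at -2.63 from WT MEF and did not pass (limma adjusted p = 0.200). Both Tial1 probes stayed well above background on both TIAR KO arrays. The study reports separately that each knockout line lacked its protein by western blot and its mRNA by RT-PCR.

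In TIA1 KO MEF, ligands and receptors of these families changed. The ephrins Efnb1, Efnb2 and Efna5, together with Slit2, Slit3, Ntn1 and Ntn4, rose, with log2 fold changes between 1.55 for Slit2 and 5.20 for Slit3. Of the receptors, Ephb4, Unc5b and Unc5c rose and Robo3 fell. A gene was called when its limma adjusted p over all probes was under 0.05 and its fold change above 2. By this rule 11 of 41 genes changed (26.8%), 10 up and 1 down, where 4.51% of all gene names on the array did (2.88% up and 1.63% down) and 6.19% of those with a RefSeq mRNA accession. The median log2 fold change of the 41 genes was 0.52, beside -0.07 for all gene names.

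The number of calls varied with the arrays in the fit and with the scaling. With either WT array left out, no member and no probe on the array was called (15 and 16 members at an unadjusted p under 0.05). Those fits take the spread from the TIA1 KO pair alone, whose SD over all probes was 0.442 against 0.273 in WT MEF, and the called members kept their sign over the 4 arrays left out, with log2 fold changes of 5.17 to 5.23 for Slit3, 1.72 to 1.85 for Unc5b and, the widest range of the 11, -2.59 to -1.95 for Robo3. Without TIA1 KO replicate 2 more members were called, and calls rose over the whole array as well. Scaling the arrays to a common median, in place of loess and quantile normalization, moved the median of all probes from -0.09 to -0.67 and gave 5 members up and 10 down, of which Slit3, Ntn1, Ntn4, Unc5c and Robo3 were called in the same direction as above. Over all probes this scaling called 1876 up and 13925 down. The processed intensities scaled to the 75th percentile moved the median of all probes to 1.98 and called no member (26 at an unadjusted p under 0.05). All 11 called members kept their sign under both scalings, at sizes that differed by gene. With a common array median the log2 fold change was 0.65 for Ephb4, 0.37 for Efna5, 1.06 for Efnb1, 0.36 for Efnb2, 0.21 for Slit2, 0.18 for Unc5b, 1.35 for Ntn1 and 1.56 for Unc5c, all above the median of all probes there. With processed intensities Efna5, Efnb2, Slit2 and Unc5b lay below the median of all probes, at -0.24, -0.02, -0.61 and -0.41 from it. Among the alternatives of normalization, moderation and probe choice, Ephb4 and Slit2 were lost in the authors' log2 values, Slit2 with quantile normalization alone, Ntn4 with an intensity trend and Efnb2 as the mean of its probes.

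In TIAR KO MEF, too, receptors and ligands changed. Epha4, Ephb4, Ephb6, Unc5a, Unc5b and Unc5c rose among the receptors, and Epha2, Robo1 and Robo3 fell. The ligands Efna5, Efnb1, Slit3 and Ntn4 rose. With 10 up and 3 down, 13 of 41 genes (31.7%) were called, beside 7.18% of all gene names (4.36% up and 2.82% down) and 10.6% of those with a RefSeq mRNA accession. The median log2 fold change of the 41 genes was 0.12, against -0.01 for all gene names. Fits without 1 of the 4 arrays gave between 9 and 13 called members. Among the other alternatives, Ephb4 and Robo3 were lost with processed intensities, Ephb4 as the mean of its probes and Epha4 with the 3 groups in 1 fit.

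**Figure D1:**
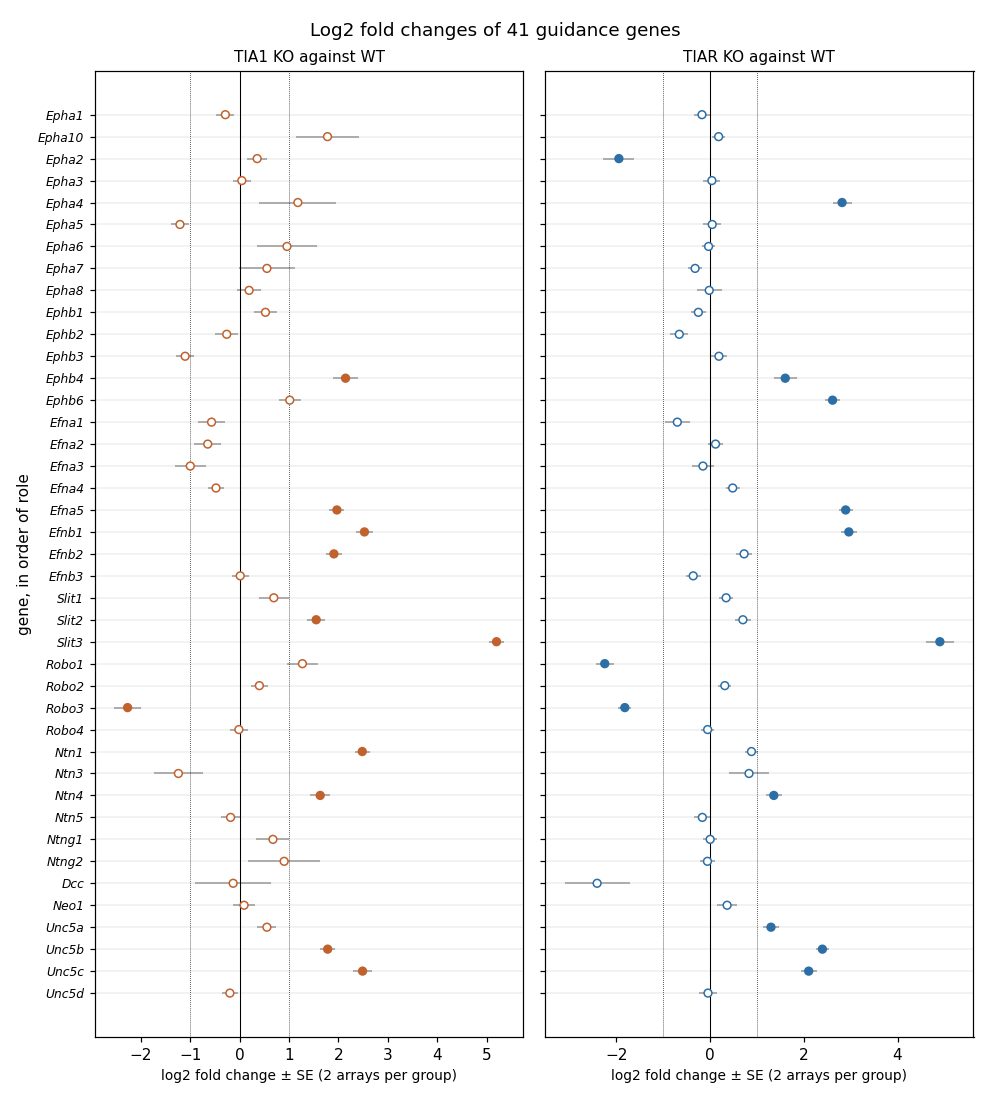
Log2 fold change against WT MEF of each of the 41 genes (rows, in order of role) in TIA1 KO MEF (left) and TIAR KO MEF (right), with the standard error as a bar and dotted lines at a 2-fold change; filled points passed the thresholds. Slit3 lay farthest to the right in both panels, at 5.20 and 4.90, and Robo3 lay to the left in both, at -2.27 and -1.82, while Robo1 had a filled point (-2.25) only on the right. The points named Dcc, with an open one at -2.41 on the right, are those of the bright probe placed on another chromosome than the gene.

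The 2 comparisons share the WT arrays, so a WT array that was low or high for a gene moves both fold changes of that gene the same way, and their values are given side by side as separate readings.

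Among the EphA receptors, which bind mainly ephrin-As, none was called in TIA1 KO MEF and 2 were in TIAR KO MEF. Epha4 (chr1:77364339-77364398), a receptor that binds both ephrin classes, read 8.27 and 7.85 in WT, 10.34 and 8.14 in TIA1 KO and 10.75 and 11.00 in TIAR KO MEF. Both TIAR KO arrays were above all others, and the TIA1 KO arrays differed from each other by more than their mean differed from that of WT MEF. The log2 fold change was 2.81 ± 0.20 in TIAR KO MEF (standard error, n = 2 arrays per group here and below; limma adjusted p = 0.00178) and 1.18 ± 0.78 in TIA1 KO MEF (limma adjusted p = 0.363).

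Epha2 (chr4:140885139-140885198), an EphA receptor common in epithelial and mesenchymal cells, read 13.56 and 13.89 in WT, 14.19 and 13.98 in TIA1 KO and 11.32 and 12.24 in TIAR KO MEF. It fell in TIAR KO MEF, where both arrays lay below the other 4, by 1.95 on the log2 scale (SE 0.33, limma adjusted p = 0.0279). This call was lost without WT replicate 1, WT replicate 2 or TIAR KO replicate 1, with a change between -2.41 and -1.49 over the arrays left out. The TIA1 KO value was 0.36 ± 0.20 (limma adjusted p = 0.300). With a common array median Epha2 was called lower in TIA1 KO MEF, at -1.20 (limma adjusted p = 0.0469).

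The brightest Epha5 probe (chr5:84487348-84487407) read 13.82 and 14.13 in WT, 12.68 and 12.86 in TIA1 KO and 13.86 and 14.17 in TIAR KO MEF. The TIA1 KO arrays were lowest, with a log2 fold change of -1.21 that did not pass (limma adjusted p = 0.0595), and the other Epha5 probes were near background on all 6 arrays. Epha7, well above background on all 6, lay between 8.19 and 9.95 and was not called. Epha10 lay between 6.70 and 9.41 and was above background on 1 TIA1 KO array alone. Epha4, Epha6, Epha7, Epha10 and Ntng2 were the 5 members that differed by more than 1 between the TIA1 KO arrays, and all 5 were higher on replicate 1, the array with the brightest spots.

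Of the 5 EphB receptors, which bind ephrin-Bs, 4 were well above background on all 6 arrays. Ephb4 (chr5:137815646-137815705), the main receptor of ephrin-B2, read 10.90 and 10.35 in WT, 12.90 and 12.65 in TIA1 KO and 12.06 and 12.40 in TIAR KO MEF. Both knockouts lay above WT MEF on every array. It rose by 2.15 ± 0.25 in TIA1 KO MEF (limma adjusted p = 0.0353) and by 1.60 ± 0.24 in TIAR KO MEF (limma adjusted p = 0.0192), and the latter call was lost without WT replicate 2 or either TIAR KO array (1.33 to 1.88). A second Ephb4 probe, also well above background on all arrays, gave 0.83 and 0.41, neither of which passed.

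Ephb6 (chr6:41570442-41570501), an Eph receptor without kinase activity, read 8.50 and 8.74 in WT, 9.43 and 9.84 in TIA1 KO and 11.19 and 11.28 in TIAR KO MEF. The 3 groups did not overlap. It rose by 2.61 ± 0.16 in TIAR KO MEF (limma adjusted p = 0.00104), and the value in TIA1 KO MEF was 1.02 ± 0.22 (limma adjusted p = 0.0934). Another Ephb6 probe was near background on all 6 arrays.

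Ephb3 (chr16:21223165-21223224) read 15.61 and 15.91 in WT, 14.62 and 14.69 in TIA1 KO and 15.95 and 15.94 in TIAR KO MEF. The TIA1 KO arrays were the lowest, at -1.10 ± 0.18 from WT MEF (limma adjusted p = 0.0626). In TIAR KO MEF the value was 0.19 ± 0.16 (limma adjusted p = 0.629). Ephb2 lay between 8.53 and 9.50 over the 6 arrays and was not called.

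**Figure D2:**
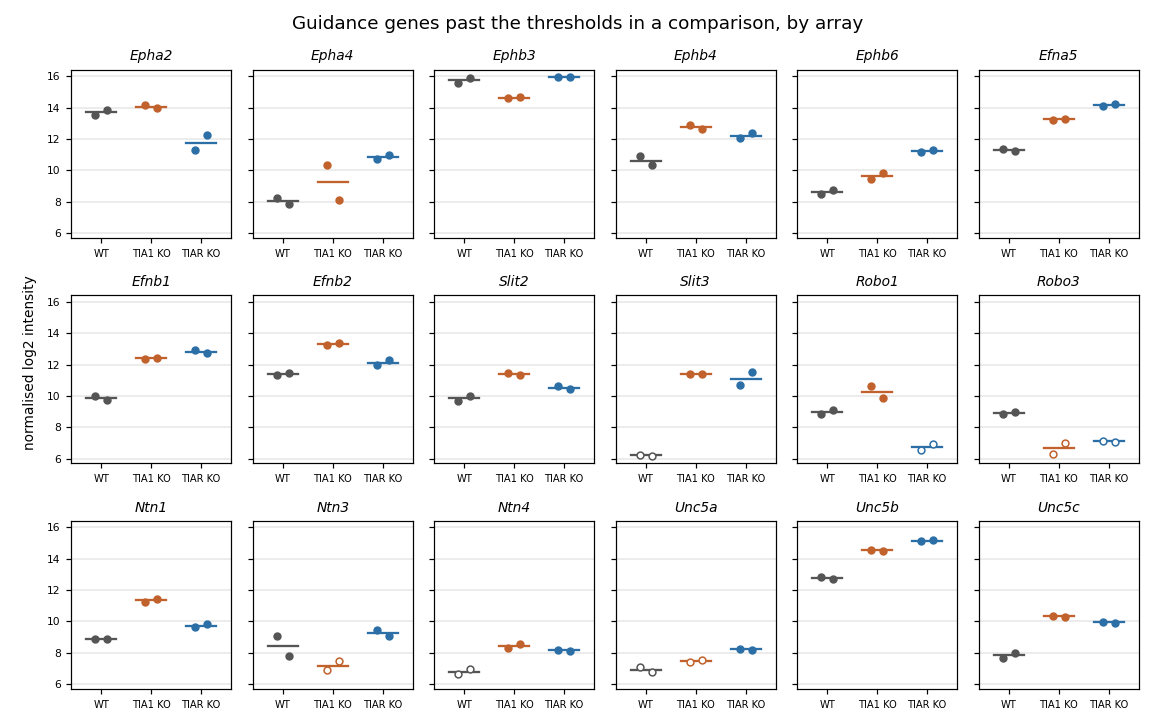
Normalised log2 intensity (vertical axis) on each of the 6 arrays for 18 of the 19 genes past the thresholds in at least 1 of the 3 comparisons (all but Dcc), with a point per array, a line at the group mean and open points where neither array of the group was well above background. Slit3 lay at 6.24 and 6.18 in WT MEF and at 10.68 or higher on the 4 knockout arrays; the 4 TIA1 KO and TIAR KO arrays also lay above both WT arrays for Efna5, Efnb1, Unc5b and Unc5c, and below them for Robo3.

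Of the ephrin-As, Efna5 (chr17:62954177-62954236) read 11.36 and 11.25 in WT, 13.25 and 13.30 in TIA1 KO and 14.12 and 14.27 in TIAR KO MEF. The groups did not overlap, and the arrays of each lay close together. Efna5 rose by 1.97 ± 0.15 in TIA1 KO MEF (limma adjusted p = 0.0153) and by 2.89 ± 0.15 in TIAR KO MEF (limma adjusted p = 0.000678). The remaining ephrin-As were not called. Efna1 lay between 11.97 and 13.20 and Efna4 between 10.24 and 11.33, both well above background on all arrays. Efna2 (7.03 to 8.27) was above background in WT and TIAR KO MEF and on neither TIA1 KO array. Efna3 (7.72 to 9.26) was above background on all but 1 TIA1 KO array, and both of its probes were lower in TIA1 KO MEF, at -0.998 (limma adjusted p = 0.144) and -1.43 (limma adjusted p = 0.052).

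Efnb1 (chrX:96343505-96343564), a ligand of EphB receptors that marks tissue boundaries, read 10.02 and 9.73 in WT, 12.36 and 12.45 in TIA1 KO and 12.91 and 12.76 in TIAR KO MEF. Every knockout array was above both WT arrays. It rose by 2.53 ± 0.18 in TIA1 KO MEF (limma adjusted p = 0.013) and by 2.96 ± 0.17 in TIAR KO MEF (limma adjusted p = 0.000919).

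Efnb2 (chr8:8618177-8618236), the ephrin of arterial vessels and many mesenchymal cells, read 11.32 and 11.49 in WT, 13.25 and 13.37 in TIA1 KO and 11.98 and 12.27 in TIAR KO MEF. The TIA1 KO arrays were highest, with a rise of 1.91 ± 0.16 (limma adjusted p = 0.0187). The TIAR KO value was 0.72 ± 0.17 (limma adjusted p = 0.0735), and a second Efnb2 probe was near background on all arrays. Efnb3 lay between 8.41 and 8.95 and was not called.

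Slit3 (chr11:35521559-35521618), a secreted Robo ligand, showed the largest change of the 41 genes in both knockouts. It read 6.24 and 6.18 in WT, 11.43 and 11.40 in TIA1 KO and 10.68 and 11.55 in TIAR KO MEF. The probe was near background on both WT arrays and well above it on all 4 knockout arrays. Slit3 rose by 5.20 ± 0.15 in TIA1 KO MEF (limma adjusted p = 0.00362) and 4.90 ± 0.30 in TIAR KO MEF (limma adjusted p = 0.00111). Because a reading near background only bounds the WT level, each WT array was also set to the dimmest reading that still counted as well above background there, or to the probe's own reading where that was higher, which put Slit3 at least 23.1-fold higher in TIA1 KO and at least 18.8-fold higher in TIAR KO MEF. The same bound is given with each called change below where the dimmer group was near background on both arrays.

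Slit2 (chr5:48696673-48696732) read 9.68 and 10.00 in WT, 11.46 and 11.33 in TIA1 KO and 10.63 and 10.45 in TIAR KO MEF. The groups did not overlap and stood in the order WT, TIAR KO, TIA1 KO. The rise of 1.55 ± 0.19 in TIA1 KO MEF passed (limma adjusted p = 0.0369), and the value of 0.70 ± 0.18 in TIAR KO MEF did not (limma adjusted p = 0.0882). Slit1 lay between 7.47 and 8.55, was above background on both arrays only in TIAR KO MEF, and was not called.

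Of the genes of the Robo family, none was well above background on all 6 arrays. Robo1 (chr16:73046190-73046249) read 8.85 and 9.13 in WT, 10.64 and 9.89 in TIA1 KO and 6.57 and 6.92 in TIAR KO MEF, where neither array was well above background. The groups did not overlap. It fell by 2.25 on the log2 scale in TIAR KO MEF (SE 0.19, limma adjusted p = 0.0032), which was at least 4.17-fold lower. The value in TIA1 KO MEF was 1.27 ± 0.31 (limma adjusted p = 0.110), and another Robo1 probe was near background on all arrays.

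Robo3 (chr9:37224357-37224416), a divergent Robo, read 8.86 and 8.98 in WT, 6.33 and 6.97 in TIA1 KO and 7.10 and 7.09 in TIAR KO MEF. It was well above background on both WT arrays and on no knockout array. Robo3 fell by 2.27 in TIA1 KO MEF (SE 0.27, limma adjusted p = 0.0355), at least 2.67-fold, and by 1.82 in TIAR KO MEF (SE 0.14, limma adjusted p = 0.00232), at least 3.40-fold. A second Robo3 probe was near background on all 6 arrays and gave -0.53 and -0.52, neither of which passed.

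The secreted netrin Ntn1 (chr11:68022986-68023045) read 8.86 on both WT arrays, 11.27 and 11.41 in TIA1 KO and 9.66 and 9.82 in TIAR KO MEF. The groups did not overlap, and TIA1 KO MEF were highest. It rose by 2.48 ± 0.15 in TIA1 KO MEF (limma adjusted p = 0.00942). In TIAR KO MEF the log2 fold change of 0.88 ± 0.15 was under the fold threshold (limma adjusted p = 0.0263), and another Ntn1 probe was near background throughout.

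Ntn4 (chr10:93208482-93208540), a netrin of basement membranes, read 6.64 and 6.94 in WT, 8.28 and 8.57 in TIA1 KO and 8.19 and 8.11 in TIAR KO MEF. It was near background on both WT arrays, above it on 1 TIA1 KO array and on both TIAR KO arrays. Ntn4 rose by 1.63 ± 0.20 in TIA1 KO MEF (limma adjusted p = 0.0392), at least 2.57-fold, and by 1.36 ± 0.17 in TIAR KO MEF (limma adjusted p = 0.0105), at least 2.12-fold. The TIAR KO call was lost without either TIAR KO array (1.21 to 1.51 over the arrays left out).

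Ntn3 (chr17:24341753-24341812) read 9.06 and 7.79 in WT, 6.92 and 7.45 in TIA1 KO and 9.45 and 9.06 in TIAR KO MEF. The WT arrays differed by more than 1, and TIA1 KO MEF were near background. Neither knockout differed from WT MEF by the thresholds (-1.24 ± 0.49, limma adjusted p = 0.199, and 0.83 ± 0.43, limma adjusted p = 0.383). Without WT replicate 1 the TIA1 KO value, which was measured near background, came to -0.60. The TIAR KO value was also higher without that array, and both values were lower without WT replicate 2, the dimmer of the WT arrays. Of the netrin-Gs, membrane-anchored netrins that do not bind the netrin receptors, Ntng2 read 7.36 and 7.16 in WT, 9.20 and 7.13 in TIA1 KO and 7.08 and 7.32 in TIAR KO MEF. It was above background on TIA1 KO replicate 1 alone and was not called.

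Of the netrin receptors, Unc5b and Unc5c rose in both knockouts and Unc5a in TIAR KO MEF, and Neo1 passed in neither. Unc5b (chr10:60225398-60225457) read 12.83 and 12.69 in WT, 14.58 and 14.51 in TIA1 KO and 15.12 and 15.19 in TIAR KO MEF. The groups did not overlap. The rise was 1.78 ± 0.15 in TIA1 KO MEF (limma adjusted p = 0.0191) and 2.39 ± 0.15 in TIAR KO MEF (limma adjusted p = 0.00106).

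Unc5c (chr3:141497142-141497201) read 7.68 and 8.02 in WT, 10.38 and 10.29 in TIA1 KO and 9.98 and 9.92 in TIAR KO MEF. All 4 knockout arrays were above the WT arrays, with rises of 2.49 ± 0.19 in TIA1 KO (limma adjusted p = 0.0148) and 2.10 ± 0.17 in TIAR KO MEF (limma adjusted p = 0.00275). A second Unc5c probe gave 0.67 and 0.92, neither past both thresholds. Unc5a (chr13:55107318-55107377) read 7.09 and 6.75 in WT, 7.39 and 7.55 in TIA1 KO and 8.22 and 8.21 in TIAR KO MEF. It was well above background in TIAR KO MEF alone, where it rose by 1.30 ± 0.17 (limma adjusted p = 0.0132), at least 2.38-fold, a call lost without either TIAR KO array (1.13 to 1.47 over the arrays left out). Neo1 lay between 12.15 and 12.87 over the 6 arrays, with differences from WT MEF of 0.09 (95% confidence interval -0.50 to 0.69) in TIA1 KO and 0.36 (-0.18 to 0.90) in TIAR KO MEF.

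The reading named Dcc needs a separate account. Its brightest probe read 14.93 and 12.75 in WT, 13.84 and 13.57 in TIA1 KO and 11.61 and 11.23 in TIAR KO MEF, and the WT arrays differed by more than 2-fold. The array files place this probe on chromosome 7 (chr7:68417162-68417221), while the gene lies on chromosome 18 in RefSeq. It was the only 1 of the 59 probes on another chromosome than its gene. Of its 60 bases, 59 were A or G, with a GAA repeat over 51 of them. The other Dcc probes were near background on all 6 arrays, so no change of Dcc itself is drawn from the bright probe, and it was not called against WT MEF in either knockout.

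A direct comparison of the knockout lines gave the test of where they differed. Robo1 and Ntn1 were lower and Ephb3, Ephb6 and Ntn3 higher in TIAR KO than in TIA1 KO MEF. With the bright Dcc probe, 6 of 41 genes (14.6%) passed, 3 higher and 3 lower, beside 4.18% of all gene names (2.06% higher and 2.12% lower) and 6.03% of those with a RefSeq mRNA accession; without it, 5 of 40 passed. The median log2 difference of the 41 genes was -0.13, beside 0.04 for all gene names. No member and no probe was called without either TIAR KO array (13 and 14 members at an unadjusted p under 0.05), where the spread again comes from the TIA1 KO pair alone. The folds over the arrays left out were 1.25 to 1.32 for Ephb3, -1.68 to -1.52 for Ntn1 and -3.90 to -3.14 for Robo1. The split of higher and lower calls was 10 and 2 with a common array median, which moved the median of all probes to 0.63, 0 and 1 with processed intensities scaled to the 75th percentile, which moved it to -1.85, 2 and 3 with quantile normalization alone, and 1 and 3 in the authors' log2 values. Over all probes the split was 7242 and 1065, 125 and 1384, 737 and 774, and 610 and 668 in the same order. By gene, Ephb3 was lost in the authors' values and with a normexp offset of 16, Ephb6 in the authors' values, with quantile normalization alone and as the mean of its probes (0.91), Ntn1 with a common array median (-0.65) and as the mean of its probes (-0.84), and Ntn3 with the 3 groups in 1 fit. With processed intensities Robo1 alone of these genes was called.

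Robo1 differed most, by -3.52 ± 0.32 (limma adjusted p = 0.0217), and with TIAR KO MEF near background this was at least a 10.1-fold difference. Ntn1 differed by -1.60 ± 0.17 (limma adjusted p = 0.0282). On the other side, Ntn3 was higher by 2.07 ± 0.27 (limma adjusted p = 0.0423), at least 2.85-fold, Ephb6 by 1.60 ± 0.21 (limma adjusted p = 0.0418) and Ephb3 by 1.29 ± 0.15 (limma adjusted p = 0.0354). The bright Dcc probe differed by -2.28 ± 0.22 (limma adjusted p = 0.0233).

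Several genes called in 1 knockout only were not shown to differ between the lines. Epha4 differed by 1.63 (95% confidence interval -0.45 to 3.72), Epha2 by -2.30 (-3.26 to -1.35, limma adjusted p = 0.0578), Efnb2 by -1.19 (-1.68 to -0.69, limma adjusted p = 0.0576), Slit2 by -0.85 (-1.31 to -0.40, limma adjusted p = 0.0913) and Unc5a by 0.74 (0.32 to 1.17, limma adjusted p = 0.104; at least 1.34-fold). For Slit3 the difference was -0.30 (-1.20 to 0.60), with overlapping groups.

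**Figure D3:**
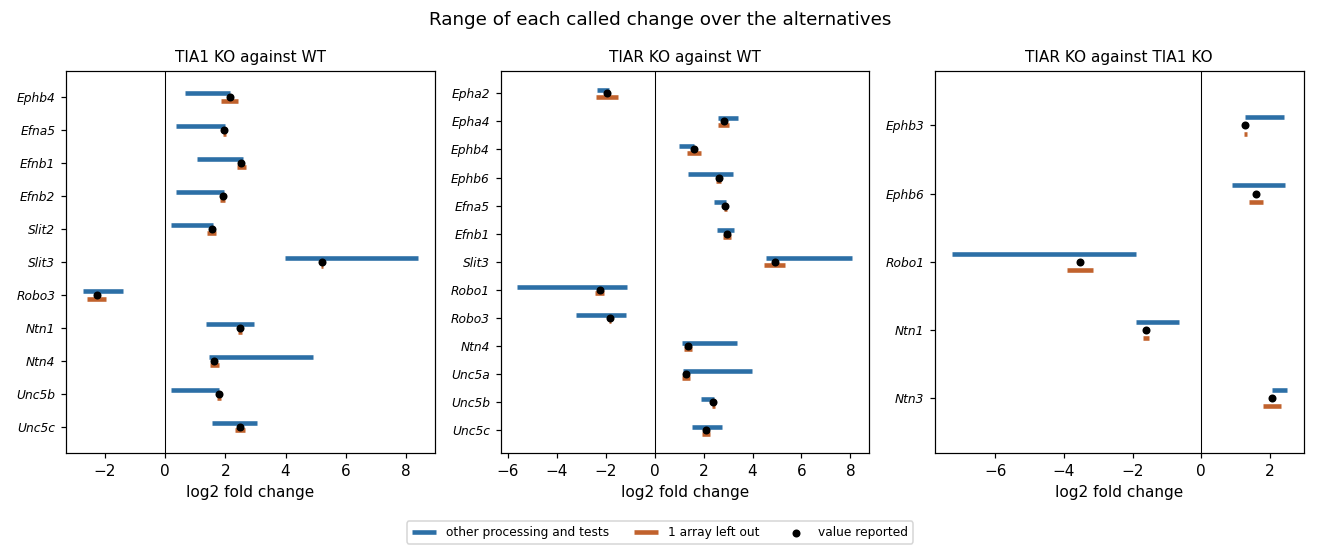
Range of the log2 fold change (horizontal axis) of each called gene but Dcc in the 3 comparisons over other processing and tests (blue) and over 1 array left out at a time (orange), with the reported value as a black point. No range of these genes crossed 0; the widest were those of genes near background in 1 group, such as Slit3 in TIA1 KO MEF (3.999 to 8.39) and Robo1 between the knockouts (-7.27 to -1.91).

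Other probes of the called genes were also counted. In TIA1 KO MEF, 5 of the 11 called genes had another probe, and none of those 5 probes was called, 3 of them near background on all 6 arrays. The counts in TIAR KO MEF were the same, 5 of 13 genes with 5 other probes, 3 of them near background and none called. The called change of these genes is therefore that of 1 probe each.

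Promoter sequence was set beside the genes that moved in both knockouts. For the 3 with the largest summed log2 fold change, Slit3, Efnb1 and Efna5, the 250 bases before the RefSeq start in GRCm38.p6 are shown 5′ to 3′ on the strand of the gene, with the GC-box core GGGCGG, searched on both strands and including overlapping matches, in capitals. The windows are chr11:35121206-35121455 (plus strand), chrX:99135811-99136060 (plus strand) and chr17:62881318-62881567 (minus strand).

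Slit3: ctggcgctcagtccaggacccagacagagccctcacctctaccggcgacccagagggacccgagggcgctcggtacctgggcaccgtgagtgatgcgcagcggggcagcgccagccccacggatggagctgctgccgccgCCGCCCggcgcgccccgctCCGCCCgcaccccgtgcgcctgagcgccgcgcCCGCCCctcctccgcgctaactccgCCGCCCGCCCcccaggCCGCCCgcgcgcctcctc
Efnb1: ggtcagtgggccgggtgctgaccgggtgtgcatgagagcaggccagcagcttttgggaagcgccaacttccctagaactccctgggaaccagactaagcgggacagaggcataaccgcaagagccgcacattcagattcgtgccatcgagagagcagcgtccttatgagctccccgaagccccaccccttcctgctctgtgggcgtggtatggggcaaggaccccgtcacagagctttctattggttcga
Efna5: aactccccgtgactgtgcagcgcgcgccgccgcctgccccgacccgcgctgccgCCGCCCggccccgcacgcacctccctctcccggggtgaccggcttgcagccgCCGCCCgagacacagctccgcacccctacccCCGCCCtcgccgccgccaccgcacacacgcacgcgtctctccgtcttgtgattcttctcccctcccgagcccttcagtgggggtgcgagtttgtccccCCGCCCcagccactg

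The motif occurred 6 times in the window of Slit3, 4 times in that of Efna5 and not in that of Efnb1. Member windows on chromosome 18, where Dcc lies, were left out. RefSeq windows were used for 36 of the 41 genes, 41 windows in all. Of these 41 windows, 28 held GGGCGG, against 32.7% of all 32851 windows of that length. The AP-1 motif TGANTCA was in none of the 41 and in 6.7% of all windows, TATAAA in 2 of 41 and 12.4%, and the E-box CACGTG in 2 of 41 and 6.0%. A match is a description of these letters and no evidence of binding, and no match says only that the letters are not in this window.

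Other genes of the same pathways were taken from a list of 59 genes by role, 58 of which were on the array. They included 10 cofactors or alternative ligands and receptors, 2 proteases and 20 kinases or adaptors. In TIA1 KO MEF 7 of 58 changed (12.1%, beside 4.51% of all gene names and 6.19% of those with a RefSeq mRNA accession), 6 up and 1 down, with a median log2 fold change of -0.13. In TIAR KO MEF 7 of 58 changed (12.1%), 5 up and 2 down, with a median of 0.03. That share was close to the 10.6% among gene names with a RefSeq mRNA accession (7.18% of all gene names). Between the knockouts 7 of 58 differed (12.1%, beside 4.18% and 6.03%), 3 higher and 4 lower in TIAR KO MEF, with a median of 0.20. With a common array median, higher and lower calls numbered 5 and 29 for TIA1 KO against WT (1876 and 13925 over all probes). They numbered 5 and 6 for TIAR KO against WT (1424 and 2715) and 18 and 5 between the knockouts (7242 and 1065). With a normexp offset of 16 they numbered 0 and 4 between the knockouts (745 and 798 over all probes). In the authors' log2 values they numbered 1 and 5 there (610 and 668). As for the members, none of the listed genes was called without either WT array in TIA1 KO MEF (21 and 20 at an unadjusted p under 0.05 in limma) or without either TIAR KO array between the knockouts (19 and 18). No protease was called in any comparison.

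Srgap1, whose product binds Robo receptors, read 6.31 and 6.23 in WT, 11.82 and 11.97 in TIA1 KO and 9.72 and 9.48 in TIAR KO MEF. It was near background in WT MEF and well above it on all 4 knockout arrays. Srgap1 was at least 32.1-fold higher in TIA1 KO (limma adjusted p = 0.00362) and at least 6.57-fold higher in TIAR KO MEF (limma adjusted p = 0.000549). The glypican Gpc1, a heparan sulphate proteoglycan that binds Slits, read 13.26 and 13.53 in WT, 16.81 and 16.70 in TIA1 KO and 14.02 and 13.70 in TIAR KO MEF. It stood apart in TIA1 KO MEF, with a rise of 3.37 ± 0.18 (limma adjusted p = 0.00714), and was lower in TIAR KO than in TIA1 KO MEF by 2.90 (limma adjusted p = 0.0116).

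Adora2b, an adenosine receptor described as a partner of netrin-1, read 7.56 and 7.72 in WT, 10.56 and 11.08 in TIA1 KO and 8.51 and 8.77 in TIAR KO MEF. It rose by 3.18 ± 0.23 in TIA1 KO MEF (limma adjusted p = 0.0142). The adaptor gene Grb10, whose product binds receptor tyrosine kinases, read 6.69 and 6.83 in WT, 9.96 and 10.35 in TIA1 KO and 8.78 and 8.81 in TIAR KO MEF. Near background in WT MEF, it was at least 8.90-fold higher in TIA1 KO (limma adjusted p = 0.00874) and at least 3.46-fold higher in TIAR KO MEF (limma adjusted p = 0.00168).

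Ngef, which encodes ephexin-1, a protein that acts downstream of EphA receptors, read 10.70 and 10.77 in WT, 11.57 and 11.72 in TIA1 KO and 8.13 and 7.95 in TIAR KO MEF. It fell by 2.69 in TIAR KO MEF (limma adjusted p = 0.000811) and was lower there than in TIA1 KO MEF by 3.60 (limma adjusted p = 0.00752). The adaptor Nck2 rose by 1.78 in TIAR KO MEF (limma adjusted p = 0.00298), from 10.55 and 10.51 to 12.21 and 12.40. Vav3 was the only listed gene called lower in TIA1 KO MEF and is named for that after its values were seen, with 10.18 and 10.11 in WT and 6.90 and 7.40 in TIA1 KO MEF, at least 5.40-fold lower (limma adjusted p = 0.0148).

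**Figure D4:**
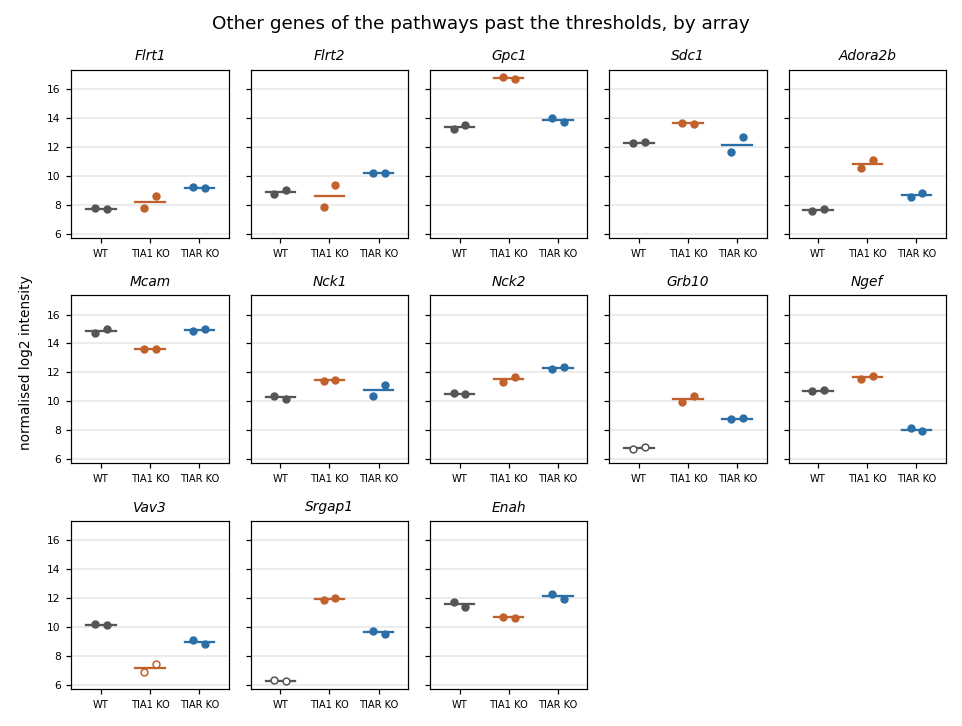
Normalised log2 intensity (vertical axis) on each of the 6 arrays for the 13 other genes of the pathways past the thresholds in at least 1 comparison, with a point per array, a line at the group mean and open points where neither array of the group was well above background. Srgap1 rose from 6.31 and 6.23 in WT MEF to 11.82 and 11.97 in TIA1 KO MEF, and Ngef lay lowest in TIAR KO MEF, at 8.13 and 7.95.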

How the data were processed

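RNA of the 3 lines was measured on 6 Agilent 1-colour mouse arrays, 2 per group. The authors deposited the scanner software's intensity, local background, processed intensity and quality flags of each spot, not normalized between arrays; they also deposited log2 values that they had normalized, for which the submitters' processing notes name limma. The reference of their loess step for 1-colour arrays is not given in the sources used here. Probe positions are on mm9, and the location of a probe in exon or UTR was not analysed here.

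Mean intensities were corrected by normexp against the median local background (offset 50), taken to log2, passed once through loess against the mean array and quantile normalized. Control spots and outlier spots were left out, and spots of a probe averaged. Groups came from the sample labels. For each comparison, limma's lmFit and eBayes were run on the 4 arrays concerned with no covariate. Benjamini-Hochberg adjustment was over 55681 probes, and a call needed a fold above 2 at an adjusted p under 0.05. The 59 member probes all had a row in the authors' log2 table, and the values of an array correlated with it at 0.997 to 0.9995.

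Values per array were given for each called member and for the brightest member of a role without calls, and for the 4 largest called changes of the pathway list. The members and lists were chosen with earlier results of these data known. RefSeq tables of GRCm38.p6 gave the chromosome of all 41 genes and the promoters. No intensity was filtered on in the main fit, no spot was saturated, and 2 arrays per group limit the precision. The fits were tested on simulated data, the outcome of which is not given here. The tools were R 4.3.3 (limma 3.58.1; statmod 1.5.0; the data.table package, 1.17.8) and Python (3.11.15), with pandas (2.3.3), numpy (2.4.6) and matplotlib (3.10.9). Alternatives were other background corrections, normalizations, filters, probe rules and fits, the authors' log2 values, and each array left out in turn.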

Additional observations from a re-analysis of the deposited data

Results flagged for a closer look

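The following genes differed between TIAR KO and TIA1 KO MEF in a direct limma test of the knockout lines, and so in their difference from the same WT arrays. Ephb3 was higher in TIAR KO MEF by 1.29 on the log2 scale, Ephb6 by 1.60 and Ntn3 by 2.07. Robo1 was lower, with a log2 difference of -3.52, and Ntn1 with one of -1.60. The bright probe named Dcc, which the files place on another chromosome than the gene, had a difference of -2.28. Robo1 and Ntn3 were near background in the dimmer line. None of these calls was kept without either TIAR KO array or with arrays paired by replicate number, and slide row differs between the 2 lines along with genotype and strain. No explanation was tested.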

How the results depend on the processing

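Calls depended on which arrays were in the fit, on the scaling and on pairing arrays by replicate number. With 1 array left out, called members ranged from 0 to 22 in TIA1 KO and from 9 to 13 in TIAR KO MEF against WT, and from 0 to 17 between the knockouts. Pathway genes ranged from 0 to 14, 6 to 7 and 0 to 18, and all probes from 0 to 10735, 2317 to 2795 and 0 to 10087, in the same order, against 1969, 3206 and 1866. The value 0 came from leaving out either WT array, or either TIAR KO array in the direct comparison, which left the TIA1 KO pair alone to give the spread.

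Processed intensities scaled to the 75th percentile called 0 members, 0 pathway genes and 0 probes in TIA1 KO MEF (27765 probes at an unadjusted p under 0.05 in limma), 4 pathway genes in TIAR KO MEF, and 1 member and 1 pathway gene between the knockouts. A common array median called 34 pathway genes (5 up, 29 down) and 15801 probes (1876 up, 13925 down) in TIA1 KO MEF. It called 11 pathway genes in TIAR KO MEF. Between the knockouts it called 12 members, 23 pathway genes (18 higher, 5 lower) and 8307 probes (7242 higher, 1065 lower). Fitting the 3 groups together called 3986 probes in TIA1 KO MEF and 3183 between the knockouts. The authors' log2 values called 1309 probes in TIA1 KO MEF (9, 13 and 4 members in the 3 comparisons). A normexp offset of 16 called 4 pathway genes, and testing only probes well above background 2910 probes, between the knockouts. Samples with the same replicate number did not deviate together (correlations 0.08, 0.03 and -0.07). With the replicate number as a block, 4 members (Efnb1, Slit3, Ntn1 and Unc5c) and 671 probes were called in TIA1 KO MEF, where Ephb4, Efna5, Efnb2, Slit2, Robo3, Ntn4 and Unc5b were not, 14 members and 3302 probes in TIAR KO MEF, and 0 members, 0 pathway genes and 0 probes between the knockouts (15 members at an unadjusted p under 0.05). The cause of these changes was not tested.

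Of 894 values for single genes under an alternative, 749 kept direction and call, 99 lost the call, 31 gained it and 15 changed sign. In TIA1 KO MEF, Epha2 came to -0.31 with processed intensities and -1.20 with a common median. The latter passed both thresholds, in the opposite direction to the reported value (limma adjusted p = 0.0469). The bright Dcc probe passed there too, at -1.69 (limma adjusted p = 0.0033). With 1 array left out Dcc ranged from -1.22 to 0.96 and Ntng2 from -0.13 to 1.94. In TIAR KO MEF, Ephb3 came to -0.27 with a common median, and Ntng2 ranged from -0.18 to 0.0607 with 1 array left out. Between the knockouts, Robo3 came to -1.30 with processed intensities, Ephb4, Slit2, Slit3 and Unc5c to 0.54, 0.19, 0.61 and 0.47 with a common median, and with 1 array left out Slit3 ranged from -0.74 to 0.14 and Ntng2 from -1.995 to 0.072. None of these was called in the fit reported above. With 2 arrays per group, and with many members near background, small differences were not detectable.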
